A study of Homo sapiens with 6 samples.

Results

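Distal SMARCA4 peaks with an AP-1 site and no GATA site numbered 1089 of the 28265 peaks in K562 cells, 3.85% (95% Wilson interval 3.63 to 4.08%). They were chosen from sequence and position alone. The midpoint of the peak lay more than 1 kb from every annotated transcript start, the central 200 bp held the 7 bases TGAGTCA on either strand and no GATA site (A or T, the word GATA, then A or G, on either strand), and the peak held no G4 motif, a run of guanine tracts that can fold into a G-quadruplex. The choice cuts on 2 graded distances, that of the midpoint to a start and that of the site to the midpoint. The nearest of the 1089 peaks lay 1003 bp from a start, 128 lay within 2 kb, and 337 peaks with the same sites and no G4 motif were left out because they lay closer. With the central 100 bp the class held 1040 peaks, and with the central 400 bp 915.

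The study measured where SMARCA4 sits on chromatin by ChIP-seq, which sequences the DNA fragments that an antibody recovers with a crosslinked protein, in order to set these places beside G-quadruplexes. K562 cells are a long-kept human line from chronic myelogenous leukaemia and have erythroid features. By their labels there were 3 libraries with the SMARCA4 antibody and 3 input libraries without an antibody, all from unmodified cells. Crosslinking took 30 min in 2 mM disuccinimidyl glutarate, then 10 min in 1% formaldehyde, and the chromatin was sheared to 150 to 400 bp. The peak list pools the 3 SMARCA4 libraries and holds the chromosome, start and end of each peak, so no spread between replicates could be given, and the list itself holds no read counts. A peak lay within 1 kb of a coding start of 10 of 10 genes that mark K562 cells, such as GATA1 and TAL1, and of 0 of 6 markers of other blood cells and 0 of 4 markers of other tissues. The share of all protein-coding genes with such a peak was not set beside these counts, so no conclusion is drawn from them.

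SMARCA4, also called BRG1, is the ATPase that drives SWI/SNF complexes, which slide and evict nucleosomes at enhancers and promoters. AP-1 is a family of paired leucine-zipper factors, made of JUN proteins with FOS or ATF partners, that bind the palindrome-like TGAGTCA and are known to work together with SWI/SNF in opening enhancers. The same core lies in the longer sites of NF-E2, NRF2 and BACH proteins paired with small MAF proteins, which act in globin, platelet and antioxidant genes, so the 7 bases do not tell which family binds. GATA1 is the main GATA factor of erythroid cells, and its sites mark a large share of their enhancers.

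The central 200 bp of 2 of the widest of these peaks and of 2 of the 3 peaks with the most AP-1 sites show how the sites lie in their context. They are named by the nearest protein-coding start, in hg19 coordinates, with the AP-1 sites in capitals. The first lies in an intron of DLGAP1, 168778 bp from the start of TGIF1, and the others between genes, 9530 bp from PSAP, 58221 bp from HS3ST4 and 82416 bp from ZNF469.
TGIF1, chr18:3624090-3624289, plus strand: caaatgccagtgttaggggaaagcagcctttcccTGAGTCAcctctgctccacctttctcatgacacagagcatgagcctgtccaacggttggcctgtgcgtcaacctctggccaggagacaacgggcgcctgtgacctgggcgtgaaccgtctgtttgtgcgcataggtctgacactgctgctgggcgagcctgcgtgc
PSAP, chr10:73620438-73620637, plus strand: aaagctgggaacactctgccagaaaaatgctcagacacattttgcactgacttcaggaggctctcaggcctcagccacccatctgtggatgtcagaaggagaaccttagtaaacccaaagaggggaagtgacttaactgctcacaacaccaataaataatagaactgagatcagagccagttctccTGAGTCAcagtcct
HS3ST4, chr16:25644959-25645158, plus strand: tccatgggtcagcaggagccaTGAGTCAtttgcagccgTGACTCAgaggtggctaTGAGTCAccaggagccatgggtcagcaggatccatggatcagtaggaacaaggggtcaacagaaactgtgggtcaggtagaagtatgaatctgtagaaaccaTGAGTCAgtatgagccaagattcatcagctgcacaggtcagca
ZNF469, chr16:88366851-88367050, plus strand: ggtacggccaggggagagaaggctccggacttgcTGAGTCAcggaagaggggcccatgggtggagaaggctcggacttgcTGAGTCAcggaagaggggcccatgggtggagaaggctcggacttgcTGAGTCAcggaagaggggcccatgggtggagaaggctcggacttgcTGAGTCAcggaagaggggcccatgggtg

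Of the 1089 peaks, 933 held 1 AP-1 site, 136 held 2, 17 held 3 and 3 held 4, for 1268 sites in all. In the peak near ZNF469 the 4 sites stood exactly 46 bp apart in a tandem repeat, and in the one near HS3ST4 the first 3 stood 17 bp apart. Among the 20 peaks with 3 or more sites, 3 had equal spacing throughout. Of the 179 neighbouring pairs of sites, 107 (59.8%) started at most 40 bp apart. The distances found most often were 10 bp, in 8 pairs, and 29 bp, in 7.

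The bases beside the AP-1 site, which played no part in the choice, set these sites apart from the AP-1 sites of the genome that lay outside every peak, far from starts and with no GATA site within 100 bp. Each site was read on the strand where it is TGAGTCA. The 3 bases TGC before it, which complete the longer site of NF-E2 and MAF dimers (tgcTGAGTCA), stood at 150 of 1268 sites, 11.8% (10.2 to 13.7%), against 6933 of 279457 sites outside peaks, 2.48% (odds ratio 5.27, 4.44 to 6.26, two-sided Fisher's exact test, adjusted p = 4.72e-53). A directly before and T directly after (aTGAGTCAt), a context that JUN and FOS dimers favour, stood at 153 sites, 12.1%, against 5.46% outside peaks (odds ratio 2.37, 2.00 to 2.81, Fisher's exact test, adjusted p = 5.11e-18). The flank shares were not compared within classes of GC content. All p-values here were adjusted by Benjamini-Hochberg over 52 tests, and they and the intervals cover counting error only, since peaks of 1 list are not replicates.

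Sites close to a peak but off its centre resembled the genome in these flanks. Among 1876 AP-1 sites 150 to 500 bp from the midpoint of a distal peak and outside every peak centre, a comparison added after the data were seen, 2.61% had TGC before and 5.65% had A before and T after (odds ratios of the central sites 5.00 and 2.29, adjusted p = 9.89e-24 and 3.99e-09 by Fisher's exact test). Peaks that held both an AP-1 and a GATA site differed less. TGC stood before 140 of their 1593 AP-1 sites, 8.79% (odds ratio 1.39, 1.09 to 1.78, Fisher's exact test, adjusted p = 0.0379). That difference did not pass the threshold with a distance of 5 kb from starts or with coding starts alone, and it was absent when any GATA word counted as a site (odds ratio 0.994). The share with A before and T after was 13.9% in peaks with both sites and did not differ by Fisher's exact test (odds ratio 0.852, 0.683 to 1.06, adjusted p = 0.326).

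A related count was made from the genome's side, over the centres of all peaks, also those with a G4 motif. Here the limits on starts and GATA sites were applied around the AP-1 site. The sites overlap with those counted above, so this is not separate support. Of 281739 AP-1 sites away from starts and from GATA sites, 1488 lay in the central 200 bp of a peak, 0.528%. With TGC before, 182 of 7195 did, 2.53% (2.19 to 2.92%), against 1306 of 274544 of the others, 0.476% (odds ratio 5.43, 4.64 to 6.35, Fisher's exact test, adjusted p = 1.48e-65). The following shares were looked at after the data were seen and were not tested. GCA after the site, which completes the longer site on its other side (TGAGTCAgca), gave 82 of 4421, 1.85%, and A before with T after gave 1.09% (0.939 to 1.27%). These contexts were not the highest: CGC and CGA before gave 3.11 and 2.64%, TCG and GCG after 2.51 and 2.23%, and C before with T or C after 1.25 and 1.16%. A T directly before or an A directly after gave 140 of 120242, 0.116% (0.0987 to 0.137%). The lowest share of any 3 bases was that of ATT after the site (TGAGTCAatt), in peaks at 2 of 16270 places.

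**Figure D1:**
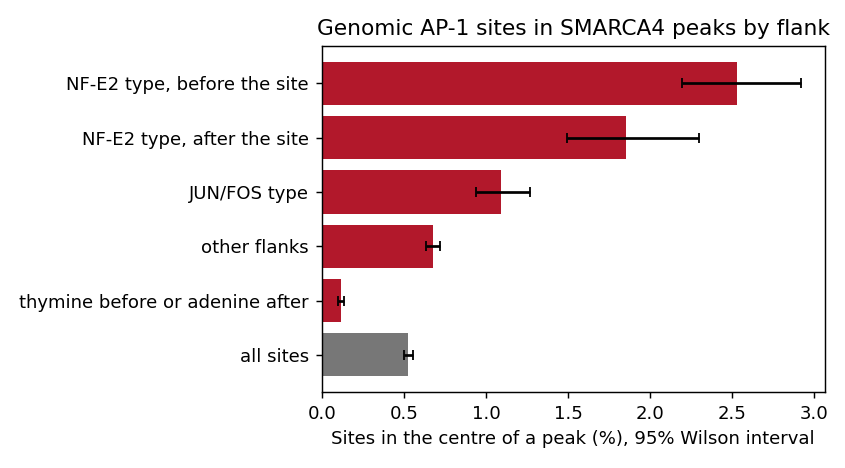
Share of the genome's distal AP-1 sites without a nearby GATA site that lie in the central 200 bp of a SMARCA4 peak, by the bases beside the site. Bars give the percent of sites and lines the 95% Wilson interval. NF-E2 type means TGC before or GCA after, JUN/FOS type A before and T after, and a site can fall under more than 1 heading. The share is 2.53% with TGC before and 0.116% with a T before or an A after.

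Base by base, T stood directly before 5.36% of the sites in the 1089 peaks and before 22.0% of those outside peaks, and A directly after 4.50% against 26.0%. G in the position before the last was found at 42.4% against 19.1%, and its mirror, C in the second position after, at 36.9% against 19.3%. These positions too were described without a test. The peaks with both sites gave 8.73% for T directly before and 5.78% for A directly after.

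Within the 1089 peaks, 143 (13.1%) held a site with TGC before and 149 (13.7%) one with A before and T after. Widths within the class were described without a test. The median was 353 bp (exact binomial interval 323 to 380 bp) with TGC before, 319 bp (306 to 334 bp) without, and 345 bp (318 to 397 bp) with A before and T after. Of the peaks with TGC before, 38.5% (30.9 to 46.6%) were at least 400 bp wide, and of the rest 36.9%. With A before and T after 40.3% (32.7 to 48.3%) were that wide. With 2 or more sites 43.6% (36.1 to 51.4%) were that wide, and with 1 site 36.0% (33.0 to 39.1%).

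Within the window used for the choice, the AP-1 site was found more often near the midpoint than evenly spread positions would give. The choice cut on this distance, so it is described here and no conclusion is drawn from it. In the 933 peaks with 1 site, its centre was within 50 bp of the midpoint in 606, 65.0% (61.8 to 67.9%), whereas these positions make up 52.1% of those possible in the window. The median distance was 36 bp (33 to 39 bp). The GATA site of peaks with 1 GATA and no AP-1 site lay within 50 bp in 62.8%. This share did not differ by Fisher's exact test (odds ratio 1.10, 0.945 to 1.28, adjusted p = 0.400). Both classes were cut on this distance by the same window, so the test does not show how the sites lie in the peaks. With the central 400 bp and an inner distance of 100 bp the odds ratio was 1.58 (Fisher's exact test, adjusted p = 1.64e-05). With the looser GATA word it was 1.43 (Fisher's exact test, adjusted p = 0.00263). The call depended on the window and the GATA word, which the choice itself uses, so no difference is read from it. Of the 1089 peaks, 1062 (97.5%) had an AP-1 site wholly inside the peak itself. The window reaches past the ends of a peak where the peak is narrower than 200 bp, as 177 were.

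**Figure D2:**
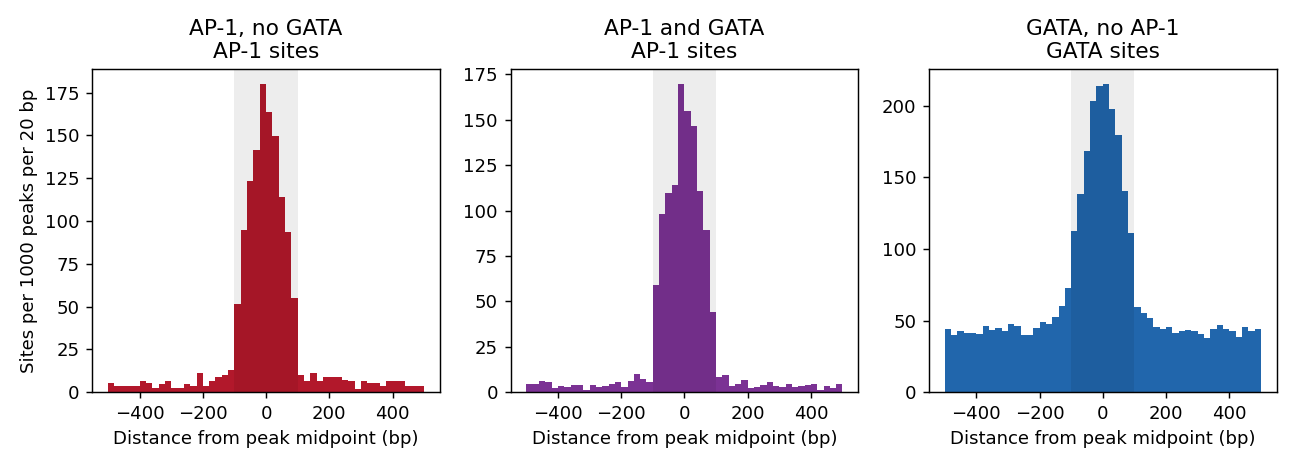
AP-1 or GATA sites per 1000 peaks in bins of 20 bp, by distance from the peak midpoint, for the 1089 peaks with AP-1 and no GATA site, the 1456 with both and the 6944 with GATA and no AP-1 site. The shaded 200 bp is the window by which peaks were classed, so the step at its edge follows from the choice. Inside it the sites are most frequent near the midpoint, where the 1089 peaks reach 180.0 sites per 1000 peaks.

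The peaks were of middling width, with a median of 325 bp (310 to 340 bp) and 25 to 75% of them between 230 and 477 bp. The narrowest spanned 2 bp and the widest 2370 bp. At least 400 bp was reached by 404 of 1089, 37.1%, against 39.7% of GATA-only peaks (odds ratio 0.895, 0.784 to 1.02, adjusted p = 0.280), 40.2% of peaks with both sites (odds ratio 0.878, 0.747 to 1.03, adjusted p = 0.280) and 33.7% of peaks with neither (odds ratio 1.16, 1.01 to 1.34, adjusted p = 0.127, all by Fisher's exact test). None of the 3 differences passed the threshold of 0.05. From 600 bp the difference from GATA-only peaks kept its direction and passed (odds ratio 0.746, Fisher's exact test, adjusted p = 0.00756), while that from peaks with neither site reversed and passed (odds ratio 0.711, adjusted p = 0.00293). The comparison with neither also turned with 3 other settings, so its direction depends on them. It passed in the reversed direction with the central 100 bp (odds ratio 0.817) and in the first direction with the central 400 bp (odds ratio 1.68).

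**Figure D3:**
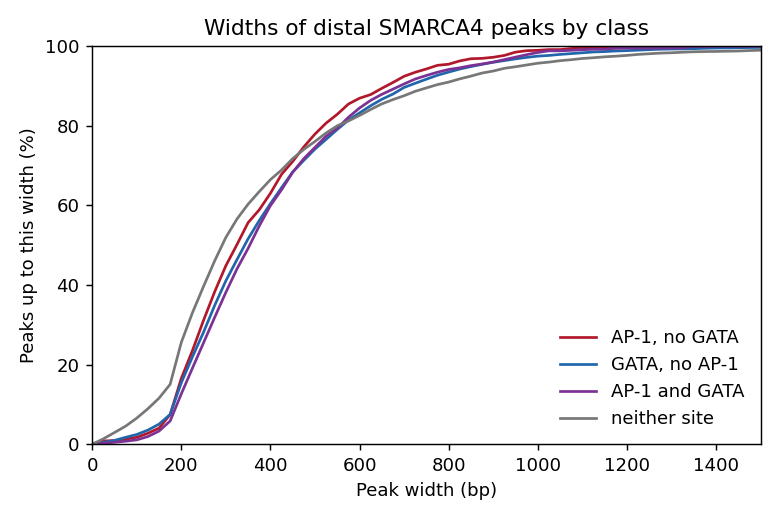
Percent of distal peaks without a G4 motif up to each width in bp, for the 4 classes by AP-1 and GATA sites. The curve of the peaks with AP-1 and no GATA site crosses that of the peaks with neither site, with medians of 325 and 291 bp.

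The 10 widest peaks measured 1056 bp or more. The first was the one in DLGAP1 (2370 bp wide), the next lay in an intron of C5AR2, a complement receptor gene (1441 bp), and 9530 bp from PSAP, for a lysosomal protein (1331 bp). Then came one in an intron of VCL, the gene of the adhesion protein vinculin (1286 bp wide, 23412 bp from its start), and one between genes at 603875 bp from KLF4, a zinc-finger factor gene (1201 bp). Others lay in introns of GNA12, a G-protein subunit gene (1185 bp), EIF4G3, a translation initiation factor gene (1082 bp), and FAM13B (1062 bp), and in an exon of PDIK1L, a kinase gene (1068 bp). The last was between genes, 1560 bp from a start of TM4SF19 (1056 bp).

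In base composition and place the peaks stood between the GATA-only peaks and those with neither site. The central 200 bp had a median GC content of 48.5% (48.0 to 49.5%), against 44.5% in GATA-only peaks and 50.5% in peaks with neither. GATA-only peaks must hold in these 200 bp a GATA site, mostly A and T, which the 1089 peaks must lack. The difference from GATA-only peaks is therefore partly fixed by the choice. The median distance to a protein-coding start was 18282 bp (16797 to 20818 bp), against 20906 and 13182 bp. Introns held 640 of the 1089 midpoints, 58.8% (55.8 to 61.7%), exons 60, 5.51% (4.30 to 7.03%), and intergenic sequence 389, 35.7% (32.9 to 38.6%). More than 50 kb from every coding start lay 256, 23.5% (21.1 to 26.1%).

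Against peaks with neither site, the midpoints lay more often in introns (58.8 against 52.9%, odds ratio 1.27, 1.11 to 1.46, adjusted p = 0.00349), less often in exons (5.51 against 8.99%, odds ratio 0.590, 0.444 to 0.784, adjusted p = 0.00123) and more often over 50 kb from a coding start (23.5 against 18.4%, odds ratio 1.37, 1.16 to 1.61, adjusted p = 0.00143, all by Fisher's exact test). Within classes of GC content, added after the data were seen, the intron and exon differences no longer passed, and the intron one did not with the central 100 bp either. With a distance of 5 kb from starts, the exon and the 50-kb difference did not pass (odds ratios 0.717 and 1.09). The choice cut on the distance to a start, so the 50-kb share is a description and no conclusion is drawn from it. Against GATA-only peaks, introns held fewer (58.8 against 63.0%, odds ratio 0.839, 0.736 to 0.955, Fisher's exact test, adjusted p = 0.0379), a call that was lost under 7 other settings.

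By chromosome, the share of distal peaks without a G4 motif that had AP-1 and no GATA site ran from 5.12% (3.02 to 8.56%) on chromosome 22 to 11.8% (8.43 to 16.2%) on chromosome 14, apart from chromosome Y, where the 1 distal peak held none. The intervals of these chromosomes overlap, and over all chromosomes the share was 8.31% (7.85 to 8.80%). The window of 1 Mb with the most of these peaks, from 45 to 46 Mb on chromosome 3, held 6 among 23 distal peaks, nearest to CDCP1, CLEC3B, LIMD1, SACM1L and TMEM158. This window was picked for its count, which was not tested. No difference was found in how often such peaks were the nearest neighbour: the nearest other distal peak was of the class for 90 of 1089, 8.26% (6.77 to 10.0%), and for 8.25% of GATA-only peaks (odds ratio 1.00, 0.794 to 1.26, Fisher's exact test, adjusted p = 1). This share was larger with the central 400 bp (odds ratio 1.59, Fisher's exact test, adjusted p = 0.000888). The nearest was GATA-only for 578, 53.1%, close to the 53.0% of all distal peaks without a G4 motif that were GATA-only.

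A fixed list of 17 short motifs, on both strands and with the AP-1 bases masked, differed from the other classes mainly in GC-rich words. GC content against GATA-only peaks is partly fixed by the choice, so no conclusion is drawn from GC-rich words in that comparison. Against peaks with neither site, 2 of 17 (11.8%) passed. GGGCGG, the word of SP factors, was found in 8.17% (6.69 to 9.95%) against 14.7% (odds ratio 0.518, 0.409 to 0.656, Fisher's exact test, adjusted p = 1.13e-07). CAGATG, the E-box form bound by TAL1 dimers, was found in 18.2% (16.0 to 20.6%) against 14.9% (odds ratio 1.27, 1.06 to 1.52, Fisher's exact test, adjusted p = 0.0409), a call lost under 6 other settings and reversed in 1 of them (central 100 bp, odds ratio 0.935). Against GATA-only peaks, 3 of 17 (17.6%) passed, all of them higher. These were GGGCGG (8.17 against 4.09%, odds ratio 2.09, 1.63 to 2.67, Fisher's exact test, adjusted p = 4.12e-07), CCACCC of KLF factors (20.1 against 14.4%, odds ratio 1.49, 1.27 to 1.75, adjusted p = 2.42e-05) and CCGGAA of ETS factors (4.32 against 2.12%, odds ratio 2.09, 1.49 to 2.92, adjusted p = 0.000339). The last was not seen with the central 100 bp (odds ratio 1.11). Within classes of GC content none of the 17 passed against either class: for GGGCGG the odds ratios became 0.826 and 1.20 (Mantel-Haenszel), for CAGATG 1.19, for CCACCC 1.08 and for CCGGAA 1.58.

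**Figure D4:**
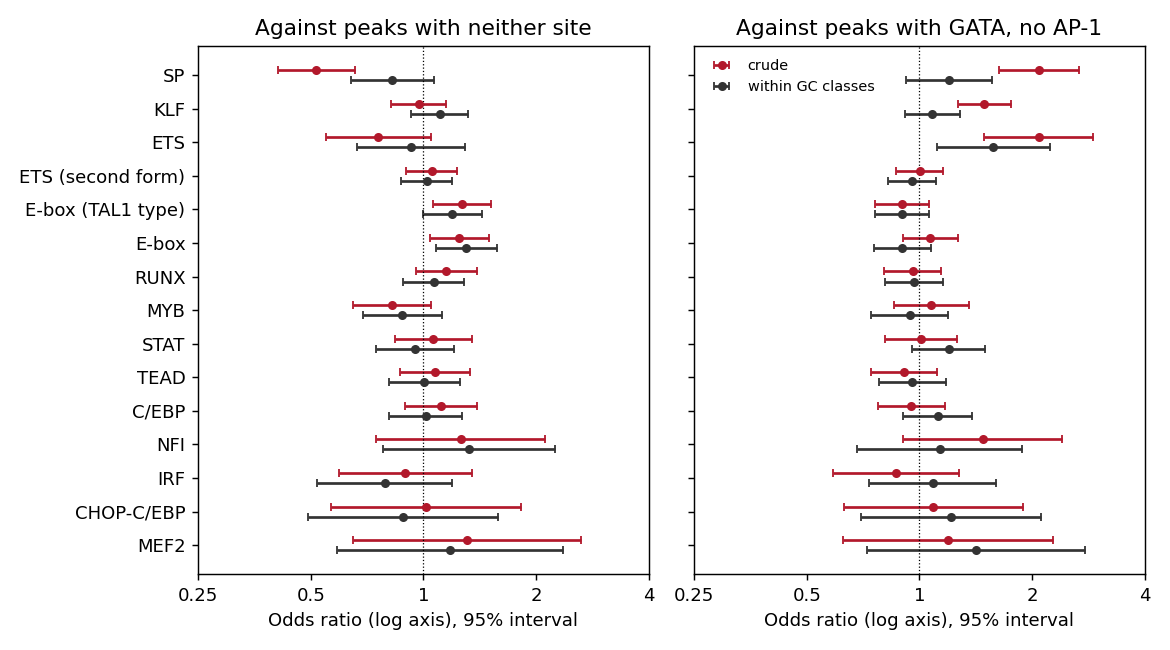
Odds ratios, on a log axis, of holding each of 15 motifs in peaks with AP-1 and no GATA site, against peaks with neither site (left) and GATA-only peaks (right). Points are odds ratios and lines 95% intervals, crude in red and within classes of GC content in black, and CRE and NRF1 are left out because few peaks held them. For SP the crude odds ratios of 0.518 and 2.09 become 0.826 and 1.20 within GC classes.

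The other motifs did not pass in either comparison, although CAGCTG passed against neither when that class was masked at like positions (odds ratio 1.35). AGGAAG, a second ETS word, stood in 25.3% of the peaks, CAGCTG, an E-box, in 17.3%, TGTGGT of RUNX factors in 15.7%, GGAATG of TEAD factors in 11.2%, and the C/EBP word TTGCNNAA in 10.6%. The STAT word TTCNNNGAA stood in 9.27% and AACGG of MYB in 8.45%. The IRF motif stood in 2.75%, NFI in 1.84%, the CHOP motif in 1.38%, MEF2 in 1.01%, the cyclic-AMP response element in 0.184% and NRF1 in 0.0918%. Among all 13104 distal peaks without a G4 motif, AGGAAG was found in 24.9%, CAGCTG in 15.5%, TGTGGT in 15.4%, GGAATG in 11.5%, the C/EBP word in 10.5%, the STAT word in 8.94% and AACGG in 8.39%. The IRF motif stood in 3.13% of them, NFI in 1.34%, CHOP in 1.31%, MEF2 in 0.900%, the cyclic-AMP response element in 0.229% and NRF1 in 0.0534%. A match to such letters is a description and does not show that a factor was bound.

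A scan of all 2076 6-base words found in the sequences, against peaks with neither site, gave 20 words that were higher (0.963%) and 242 that were lower (11.7%) at an adjusted p under 0.05. Of the lower words, 196 held the step CG, as 604 of all words did, and none of the higher ones did. Among the lower words GCGCCC had the smallest adjusted p, and stood in 4.32 against 13.9% of peaks (odds ratio 0.279, 0.205 to 0.379, Fisher's exact test, adjusted p = 1.11e-17 over the 2076 words). The higher words were led by AGGTCA, the core of nuclear receptor sites, in 218 of 1089 against 549 of 3615 (odds ratio 1.40, 1.17 to 1.66, Fisher's exact test, adjusted p = 0.00340), CTCTGA (18.3 against 13.7%, adjusted p = 0.00450), and AGGTGA and CAAATG (each 15.1 against 11.0%, adjusted p = 0.00598). Within classes of GC content, added after the data were seen, 60 words passed, of which 2 were higher, CTCTGA and AGGTGA, so AGGTCA and CAAATG lost their calls. When the other class was masked at like positions, 72 words were higher and 180 lower.

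The genes near these peaks were read through lists of fixed genes. Of 19794 protein-coding genes, 1634 had one of the peaks within 50 kb of a start, 8.26%, and 6292 had a GATA-only peak, 31.8%. Within 20 kb 798 had one of the peaks, 4.03%. Shares of the lists were set beside these values without a test, and well-studied genes can differ from the average gene in ways that were not tested. For most genes described next, 41 bases around the AP-1 site nearest the midpoint are given, on the strand that reads TGAGTCA, which is in capitals.

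**Figure D5:**
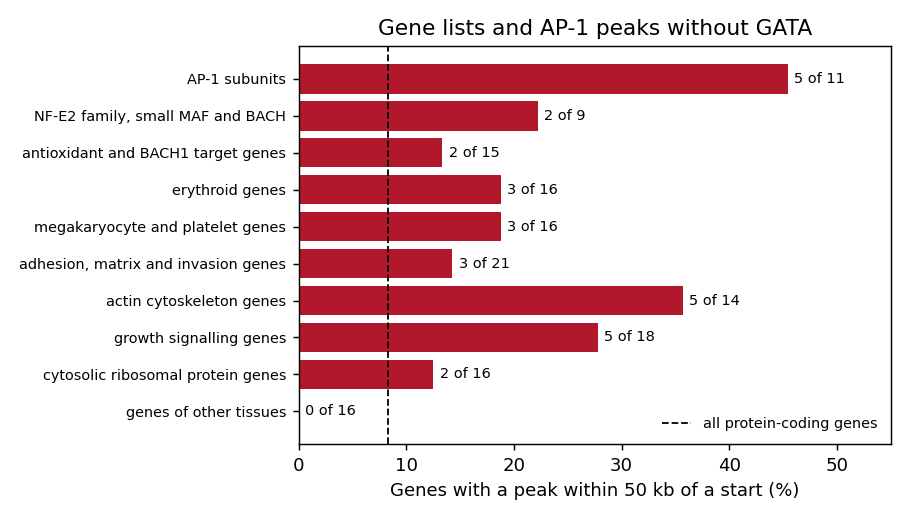
Percent of the genes of each list that had a peak with AP-1 and no GATA site within 50 kb of a protein-coding start. Bars start at 0, the counts stand beside them, and the dashed line is the 8.26% of all protein-coding genes. The AP-1 subunits, with 5 of 11, have the longest bar, and genes of other tissues have none.

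Genes of AP-1 subunits themselves had such a peak in 5 of 11 cases, and a GATA-only peak also in 5 of 11. ATF3, a stress-induced member of the family, had one 1897 bp from a start in its own intron. JUNB had one at 8418 bp that held 3 AP-1 sites, JDP2, which encodes a repressor that pairs with JUN, one at 10701 bp in its intron, and JUND one at 23093 bp. FOSB had one at 28230 bp, in an intron of ERCC1. With a limit of 20 kb the count was 3 of 11, 27.3%. The site near ATF3 is followed by GCA, which completes the longer site.
ATF3, chr1:212740576-212740616, minus strand: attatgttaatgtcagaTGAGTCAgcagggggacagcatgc
JUNB, chr19:12893854-12893894, minus strand: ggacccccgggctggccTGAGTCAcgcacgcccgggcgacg
JDP2, chr14:75909501-75909541, minus strand: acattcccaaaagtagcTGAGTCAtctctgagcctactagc
JUND, chr19:18415499-18415539, plus strand: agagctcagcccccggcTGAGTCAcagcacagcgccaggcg

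Of the genes of NF-E2, small MAF and BACH proteins, 2 of 9 had such a peak and 6 of 9 a GATA-only peak. MAFG, a small MAF gene, had one at 10587 bp in an exon of SIRT7, and BACH2, a repressor gene of the same family, one at 10908 bp in its own intron, again with GCA after the site. Of genes of the antioxidant response and BACH1 targets, 2 of 15 had one and 7 of 15 a GATA-only peak. These were SLC48A1, the gene of a haem transporter, at 2317 bp, and SLC7A11, the gene of the cystine and glutamate exchanger, at 6558 bp, both in introns of the gene. The site near SLC7A11 has A before and T after.
BACH2, chr6:90995517-90995557, plus strand: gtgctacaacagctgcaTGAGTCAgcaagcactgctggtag
SLC48A1, chr12:48169413-48169453, minus strand: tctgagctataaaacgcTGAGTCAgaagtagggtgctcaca
SLC7A11, chr4:139156957-139156997, plus strand: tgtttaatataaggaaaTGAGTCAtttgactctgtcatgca

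Erythroid genes had such a peak in 3 of 16 cases and a GATA-only peak in 13 of 16. Among them were GYPC, for a glycophorin of the red cell membrane, at 1894 bp in an exon, and ANK1, for the membrane anchor ankyrin, at 5123 bp in an intron. Megakaryocyte and platelet genes had one in 3 of 16 cases, none of them within 20 kb, and a GATA-only peak in 5 of 16. A single peak between CD9, a tetraspanin gene, and VWF, which encodes von Willebrand factor, was the nearest to both, at 31789 and 43256 bp. ITGB3, for an integrin of platelets, had one at 34912 bp in its intron, with GCA after the site.
CD9, chr12:6277131-6277171, minus strand: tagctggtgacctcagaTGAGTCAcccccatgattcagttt
ITGB3, chr17:45366056-45366096, plus strand: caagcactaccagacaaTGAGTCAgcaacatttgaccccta

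Actin cytoskeleton genes had such a peak in 5 of 14 cases and a GATA-only peak in 7 of 14. Peaks lay in introns of TPM4, for a tropomyosin, at 2803 bp, LMNA, which encodes nuclear lamins and was counted in this list, at 3823 bp, and VCL, described above. ACTN4, for an actinin, had 2 within 50 kb, the nearest of them between genes at 10532 bp. The site near ACTN4 has GCA after it. Of adhesion, matrix and invasion genes, 3 of 21 had one, 1 of them within 20 kb, and 13 of 21 a GATA-only peak. S100A10, for a partner of annexin, had it at 19514 bp, and PLAU, for the protease urokinase, at 21411 bp with TGC before the site, both between genes.
TPM4, chr19:16181339-16181379, plus strand: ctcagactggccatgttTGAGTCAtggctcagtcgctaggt
LMNA, chr1:156100161-156100201, plus strand: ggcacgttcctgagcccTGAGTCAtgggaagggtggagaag
ACTN4, chr19:39127799-39127839, plus strand: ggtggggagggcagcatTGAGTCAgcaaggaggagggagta
S100A10, chr1:151945565-151945605, plus strand: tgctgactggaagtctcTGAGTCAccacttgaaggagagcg
PLAU, chr10:75692263-75692303, minus strand: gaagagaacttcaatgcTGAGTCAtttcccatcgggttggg

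Of growth signalling genes, 5 of 18 had such a peak and 10 of 18 a GATA-only peak. DUSP5, for a phosphatase that acts on ERK, had one at 3567 bp in its intron with A before and T after the site. IER3, an early response gene, had the nearest at 25228 bp, MCL1, for a survival protein, at 33937 bp in an intron of ENSA, PIM1, for a kinase, at 34444 bp, and SPRY4, for an inhibitor of receptor signalling, at 37925 bp. With a limit of 20 kb the count was 1 of 18, 5.56%, near the 4.03% of all genes. Cytosolic ribosomal protein genes had one in 2 of 16 cases, neither within 20 kb, among them RPL8 at 24536 bp, and genes of other tissues in 0 of 16, against GATA-only peaks in 5 and 2.
DUSP5, chr10:112261192-112261232, minus strand: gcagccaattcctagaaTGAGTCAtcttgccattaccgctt
IER3, chr6:30737496-30737536, plus strand: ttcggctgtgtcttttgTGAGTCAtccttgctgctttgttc
MCL1, chr1:150586144-150586184, minus strand: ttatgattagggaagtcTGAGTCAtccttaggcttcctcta

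When each peak was given to its nearest coding start, the 1089 peaks fell to 971 genes, of which 866 had 1, 94 had 2, 9 had 3 and 2 had 4. CPEB4, which encodes an RNA-binding regulator of translation, had 4 of the 10 distal peaks assigned to it, from 33918 to 123736 bp away. PIP4K2A, for a lipid kinase, had 4 of 13, of which 3 lay in its introns, from 7458 to 102020 bp. The genes with 3 that come next by name were HEY1 (of 4 distal peaks), KIF13A (of 10), KIF13B (of 8), MACF1 (of 9), RAP2B (of 10), RPTOR (of 7), TBX19 (of 5) and TMEM63B (of 11). These genes were picked for their counts, which were not tested. The class made up 8.31% of all distal peaks without a G4 motif. HEY1 encodes a repressor downstream of Notch, MACF1 links actin to microtubules, and RPTOR encodes a subunit of the growth-control complex mTORC1.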

How the data were processed

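Reads were handled by the authors: adapters went with cutadapt, BWA placed the rest on hg19, duplicates were dropped, and they called peaks for each replicate with MACS2 and kept regions shared by at least 2 of the 3 SMARCA4 replicates with bedtools. The deposited values are the start and end of each peak in bp, with no score, so the width is that of the shared region. The sources differ on whether the replicates are biological or technical. The deposited design text counts 1 input where the labels list 3. The description of the 3 antibody samples speaks of G4 ChIP-seq, while their titles and antibody name SMARCA4, which was followed here.

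Classes were made from the hg19 sequence and GENCODE release 44 lifted to hg19 (254413 transcripts) in Python 3.11.15. Tests used scipy 1.17.1 with statsmodels 0.14.6, arrays numpy 2.4.6, and plots matplotlib 3.10.9. As G4 motif counted 4 tracts of 3 or more guanines, each followed within 1 to 7 bases by the next, anywhere in the peak and on any strand. Shares were compared by Fisher's exact test with Woolf intervals, or by Mantel-Haenszel odds ratios over GC classes 5 points wide or 4 width classes. Scripts were tested on simulated data. Alternatives changed the width and distance limits, window, GATA word, starts, G4 rule and chromosomes. The members and lists were chosen with earlier results of these data known. Genes were named as the nearest coding start of the 10 widest members and of members whose sequence is shown, the 10 genes nearest to the most members, with ties by symbol, and up to 4 list genes by distance, some of which are not given, the others of a count of 5 being named after their values were seen.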

Additional observations from a re-analysis of the deposited data

How the results depend on the processing

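No paired analysis was possible because replicates are pooled: the deposited list holds no value for any of the 3. In every alternative run, none of them within GC classes, the flank shares against sites outside peaks pointed the same way and passed the threshold. So did the share of genomic sites in peaks by flank, which was run only with peaks of at least 200 bp, peaks merged and autosomes. The following odds ratios and counts did not, and the cause was not tested.

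The members numbered 622 with the loose GATA word and 687 with a distance of 5 kb. For width, the odds ratio against GATA-only peaks was 0.823 with the central 100 bp and 0.746 from 600 bp, both now past the threshold, and against both sites 0.750 with the central 400 bp. Against neither it was 0.972 with peaks of at least 200 bp, 0.854 with peaks merged, 0.817 with the central 100 bp and 0.711 from 600 bp, all reversed and the last 2 past the threshold, and 1.68 with the central 400 bp, also past it. For TGC against both sites it was 0.994 with the loose word, a reversal, and 1.38 with 5 kb and 1.31 with coding starts, no longer past the threshold. For the inner position, which the choice cut on, it was 1.58 with 400 bp and 1.43 with the loose word, now past it. For the same-class neighbour it was 0.990 with autosomes only, 0.776 with 100 bp and 0.952 with the loose word, all reversed, and 1.59 with 400 bp.

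For introns against GATA-only peaks, the odds ratio was 0.894 with at least 200 bp, 0.889 merged, 0.850 with autosomes, 0.917 with 100 bp, 0.840 with the loose word, 0.893 with 5 kb and 0.900 within GC classes, none past the threshold. The share over 50 kb passed it at 0.813, 0.804, 0.814, 0.786, 0.777 and 0.810 with at least 200 bp, merging, autosomes, 400 bp, 5 kb and G4 peaks kept. The choice cut on the distance to a start, so no conclusion is drawn from that share. Intergenic shares passed at 1.27 with 400 bp and 1.17 with G4 peaks kept. Exons reversed to 0.949 with 100 bp, 0.974 with 5 kb and 0.995 within GC classes. The number of the 4 locations that passed, 1 at first, was 0 with 100 bp, the loose word or GC classes and 3 with 400 bp or G4 peaks kept. Against neither, introns had 1.19 with 100 bp and 1.20 within GC classes, exons 0.717 with 5 kb and 0.697 within GC classes, and the share over 50 kb 1.09 with 5 kb, none past the threshold. Intergenic shares passed at 0.756 with 5 kb. Within GC classes 1 of the 4 passed.

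Motifs past the threshold against neither, 2 at first, were 1 with 100 bp, the loose word, 5 kb or width classes, 5 with coding starts, 4 with G4 peaks kept and 0 within GC classes. Against GATA-only, 3 at first, they were 5 with 400 bp and 0 within GC classes. CAGATG against GATA-only passed at 0.736 with 100 bp, and CCGGAA against neither at 0.712 with 400 bp and 0.666 with coding starts. CAGATG against neither reversed to 0.935 with 100 bp, and CCACCC against neither, which had not passed, to 1.11 within GC classes and 1.06 with like masking. Words of 6 bases past the threshold fell from 262 to 60 within GC classes. Coding genes with a member were 798 within 20 kb, 2947 within 100 kb and 971 by nearest start. With like masking CAGCTG passed against neither (1.35). With 1 site per peak no flank call changed. GC classes for locations and words, like masking, off-centre sites and 1 site per peak were added after the data were seen. The planned share of sites in repeats was not run, since the genome used carries no repeat marking. The deposited list holds no read counts, so depth was not used in any comparison.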

Other observations

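The word GATTACAGG is known from Alu elements. No repeat annotation was used, so the count does not show which sites lie in such elements. The word was looked for after the sequences were seen, in the 20 bases before each site. It stood at 37 of the 1268 sites in the 1089 peaks, 2.92%, and at 10454 of 279457 sites outside peaks, 3.74% (95% Wilson interval 3.67 to 3.81%). Of the genome's sites with the word, 0.380% (0.279 to 0.517%) lay in a peak centre, and of those without it 0.534% (0.507 to 0.562%). These shares were not tested.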
